A study of Oryza sativa with 24 samples.

Results

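The response to auxin-containing medium was followed in scutella of 35Spro:OsMIR393b, a transgenic rice line that overproduces the microRNA miR393. Of the 24 RNA-seq libraries of the series, 6 were used for this comparison. Of these, 3 came from seeds of the line kept for 5 d on callus-inducing medium (CIM), which is N6 medium with the synthetic auxin 2,4-D, and 3 from seeds of the line kept for 2 d on N6 medium without hormone. They were selected by genotype, medium and day as the labels give them. Another 6 libraries, from wild-type seeds under the same conditions, and 3 from the line after 2 d on CIM served as points of reference. Both genotypes are in the Nipponbare background. The transgene is driven by the 35S promoter, which is active in most cells, and the number of independent transformants behind the line is not given in the sources used here. Each library was made from the scutella of pooled seeds and is described as a biological replicate. The labels name the tissue as mature embryo. The hormone-free control was taken at 2 d only, so the effect of the medium and the effect of 3 further days of culture cannot be told apart in the main comparison.

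The scutellum is a flat organ of the cereal embryo, placed next to the endosperm. During germination it takes up sugars and amino acids released from the reserves, and on medium with auxin it can form callus. Auxin is perceived by the F-box proteins TIR1 and AFB, which bring Aux/IAA repressor proteins to degradation and so release the auxin response factors (ARFs). The microRNA miR393 directs the cleavage of transcripts of these receptors. In cereals, callus from the scutellum is known to express regulators of the embryo and of stem cells, among them LEC1, WOX and PLETHORA (PLT) transcription factors.

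The 6 libraries held between 62487300 and 70796624 estimated counts, and no pair of libraries in the series held identical values. Levels are given as CPM, the count of a gene relative to the TMM-scaled total of its library. Replicate 1 of the line at 5 d stood apart from the other replicates of its group. Across genes, its log2 CPM values had a correlation of 0.946 with replicate 2 and 0.928 with replicate 3, while these had 0.957 with each other. On a line that runs from the mean of the line on N6 (0) to the mean of wild-type at 5 d on CIM (1), replicate 1 lay at 0.498, replicate 2 at 0.326 and replicate 3 at 0.232. The 10 most abundant genes took 10.5% of its counts, against 15.9% and 15.6% in the other replicates and 7.62% to 8.44% on N6. Calls, counts and log2 fold changes were therefore also computed without this library, but the fold bounds given for genes at 0 in a group were not.

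Between N6 and 5 d on CIM, 1887 genes rose and 1251 fell in the line, which is 10.6% of the 29710 genes tested (6.35% higher and 4.21% lower). A gene was called when the edgeR quasi-likelihood test gave a Benjamini-Hochberg adjusted p under 0.05 and the log2 fold change was above 1 in size. The median log2 fold change over all genes tested was 0.02. Called or not, 17.1% of genes tested had all CIM libraries above all N6 libraries, and 19.6% had all below. A lack of overlap was thus common, and members of lists named below were mostly picked for a small p. Without replicate 1, 1830 genes rose and 1654 fell (6.04% and 5.46% of 30276, together 11.5%). With libraries scaled to their totals alone, 1626 rose and 1411 fell (5.47% and 4.75%, together 10.2%). Of the 3138 called genes, 2569 kept their call without that library, 1554 of them higher and 1015 lower, and 0 were called in the opposite direction. Another 276 genes were called higher and 639 lower only when it was left out. The split turned when limma was run on log2(FPKM + 1), with 900 genes higher and 1096 lower. In RNA from whole tissue, fewer cells of a type and less RNA per cell cannot be told apart.

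The transcripts that miR393 targets did not pass the call. OsTIR1 (chromosome 5, 2892746 to 2898971 in IRGSP-1.0), the auxin receptor, was at 27.5, 24.2 and 26.2 CPM on N6 and 19.1, 22.4 and 25.4 CPM at 5 d on CIM, and the groups overlapped (log2 fold change -0.22, standard error 0.11, adjusted p = 0.14). In wild-type it was at 110.5 ± 6.22 CPM on N6 and 83.2 ± 1.83 CPM at 5 d (mean ± SD, n = 3), both means above every library of the line shown here. The related receptor OsAFB2 (chromosome 4, 19453774 to 19458208) was at 90.5, 79.1 and 77.1 CPM on N6 and 54.9, 61.7 and 71.5 CPM at 5 d on CIM. All its CIM libraries were below its N6 libraries, but the change was under the minimum fold (log2 fold change -0.39, standard error 0.10, adjusted p = 0.0057). Wild-type held 142 ± 10.3 CPM on N6 and 121 ± 7.79 CPM at 5 d.

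Transcripts of the early auxin response did rise in the line. Among the Aux/IAA genes, whose products repress ARFs and which are themselves induced by auxin in many plants, 15 of 28 tested rose and 1 fell, with a median log2 fold change of 1.34. Without replicate 1, 13 rose and 1 fell. OsIAA10 was at 4.94, 6.16 and 4.501 CPM on N6 and 62.6, 61.6 and 48.8 CPM at 5 d on CIM (log2 fold change 3.47, standard error 0.15, adjusted p = 7.8e-11). OsIAA9 went from 0.879, 1.03 and 0.244 to 23.3, 15.7 and 12.6 CPM (log2 fold change 4.58, standard error 0.44, adjusted p = 9.4e-07). In both genes the groups were far apart. OsIAA4 went from 0.879, 0.500 and 1.17 to 10.4, 9.61 and 4.98 CPM (log2 fold change 3.29, standard error 0.27, adjusted p = 1.3e-07). OsIAA11, which restrains lateral root formation in rice, went from 0.927, 0.894 and 1.06 to 7.74, 4.77 and 4.804 CPM (log2 fold change 2.59, standard error 0.39, adjusted p = 9.8e-05). OsIAA1 rose with little spread, from 39.1, 39.6 and 35.9 to 90.0, 88.5 and 93.7 CPM (log2 fold change 1.25, standard error 0.08, adjusted p = 1.4e-08). OsIAA26 was near 0 on N6 and held 8.48, 1.96 and 2.82 CPM at 5 d, with replicate 1 highest. OsIAA17, the most abundant member, and OsIAA5 were not called, with log2 fold changes of 0.23 and 0.45.

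GH3 enzymes join auxin to amino acids and thereby lower its free pool. Of the 8 GH3 genes tested, 3 rose and 0 fell, with and without replicate 1. GH3-2 (chromosome 1, 32221378 to 32225121) was at 32.3, 55.8 and 34.4 CPM on N6 and 1461, 1768 and 1518 CPM at 5 d on CIM (log2 fold change 5.28, standard error 0.26, adjusted p = 4.4e-10). Its lowest library on CIM was far above its highest on N6. GH3-8 went from 122, 135 and 76.5 to 764, 621 and 353 CPM (log2 fold change 2.38, standard error 0.29, adjusted p = 1.6e-05), and OsGH3-4 from 4.60, 1.54 and 5.30 to 70.6, 28.3 and 15.2 CPM (log2 fold change 3.32, standard error 0.57, adjusted p = 0.00036). In OsGH3-4 replicate 1 was the highest of the CIM libraries and the groups did not overlap.

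Of the ARF genes, 4 of 25 rose and 0 fell (median log2 fold change 0.32), a share of 16.0% against 10.6% of all genes. Without replicate 1 the counts were 3 and 1, and the median was 0.05. OsARF19, an activating ARF, was at 7.34, 7.48 and 10.5 CPM on N6 and 51.6, 28.5 and 22.0 CPM at 5 d on CIM (log2 fold change 2.01, standard error 0.30, adjusted p = 9.6e-05). OsARF13 went from 3.18, 2.91 and 3.75 to 9.71, 7.96 and 6.33 CPM (log2 fold change 1.29, standard error 0.22, adjusted p = 0.0003). Both were called without replicate 1 as well. Of the other ARF genes that the study names, OsARF4, OsARF5, OsARF8, OsARF12, OsARF16 and OsARF23 were not called. In OsARF5, OsARF12 and OsARF16 replicate 1 was the highest library, as in OsARF16 at 35.5, 17.4 and 18.01 CPM against 18.6, 16.7 and 15.9 CPM on N6. OsARF8 held 43.5, 21.1 and 21.1 CPM at 5 d, with replicate 1 above and the other replicates below all N6 libraries (29.8, 30.3 and 34.9 CPM).

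SAUR genes encode small proteins that respond to auxin within minutes. Of 41 tested, 6 rose and 4 fell, and without replicate 1 the counts were 4 and 7. The list thus held calls in both directions under both settings. OsSAUR56 went from 3.12, 4.47 and 3.80 to 9.92, 8.33 and 10.4 CPM (log2 fold change 1.33, standard error 0.23, adjusted p = 0.00038). OsSAUR5 fell from 9.94, 11.2 and 13.7 to 0.296, 0.990 and 0.479 CPM (log2 fold change -4.30, standard error 0.75, adjusted p = 0.00041).

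LBD proteins are plant transcription factors that act downstream of ARFs in root and callus formation in Arabidopsis. Of 19 LBD genes, 6 rose and 1 fell with and without replicate 1. Os08g0563400 went from 2.16, 2.71 and 1.56 to 15.6, 24.1 and 18.1 CPM (log2 fold change 3.17, standard error 0.26, adjusted p = 1.5e-07). Os02g0820500 was near 0 on N6 and held 15.5, 4.46 and 2.00 CPM at 5 d (adjusted p = 2.7e-05). OsCRL1, the name under which the study lists Os03g0149000, went from 1.18, 1.06 and 1.76 to 3.95, 3.35 and 3.07 CPM (log2 fold change 1.38, standard error 0.23, adjusted p = 0.00029). In these genes the groups did not overlap. Os03g0287400 moved the other way, from 1.53, 1.68 and 1.77 CPM on N6 to 0 in all CIM libraries, which is at least 8.48-fold lower.

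Of the 15 auxin transport genes, 2 rose and 0 fell, and without replicate 1 the counts were 2 and 1. The share of 13.3% with all libraries was near the 10.6% of all genes. PIN proteins export auxin and AUX1/LAX proteins import it. The gene that the table names PIN1A (Os02g0743400) went from 18.1, 15.6 and 16.7 to 75.2, 50.1 and 49.3 CPM (log2 fold change 1.79, standard error 0.33, adjusted p = 0.00063), and OsLAX2 from 2.03, 0.333 and 0.959 to 41.3, 15.4 and 4.57 CPM (log2 fold change 4.21, standard error 0.96, adjusted p = 0.0037). The genes that the study names OsPIN1a, OsPIN1c and OsPIN1d were not called. OsPIN1a (Os06g0232300) was at 11.2, 10.4 and 10.4 CPM on N6 and 52.9, 16.5 and 16.3 CPM at 5 d on CIM, and OsPIN1d at 6.78, 5.83 and 5.96 CPM on N6 and 13.4, 8.40 and 1.68 CPM at 5 d on CIM. In each, replicate 1 was the highest library, and in OsPIN1c and OsPIN1d replicate 3 lay below N6. OsPIN1c held 30.8, 19.6 and 5.03 CPM at 5 d.

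Of 9 auxin synthesis genes, 1 rose and 1 fell, and without replicate 1 0 rose and 1 fell. YUCCA enzymes make indole-3-acetic acid. YUCCA5 fell from 4.44, 2.85 and 4.16 to 0.310, 0.297 and 0 CPM (log2 fold change -4.21, standard error 1.11, adjusted p = 0.012). OsYUCCA9 went from 3.60, 2.14 and 3.46 to 9.03, 6.34 and 5.34 CPM, and its call was lost without replicate 1 (log2 fold change 1.17, standard error 0.37, adjusted p = 0.029, and 0.93 (adjusted p = 0.098) without replicate 1). OsYUCCA1 was at 0, 0.121 and 0.130 CPM on N6 and 1.05, 0.446 and 0.301 CPM at 5 d on CIM and was not called (adjusted p = 0.052).

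**Figure D1:**
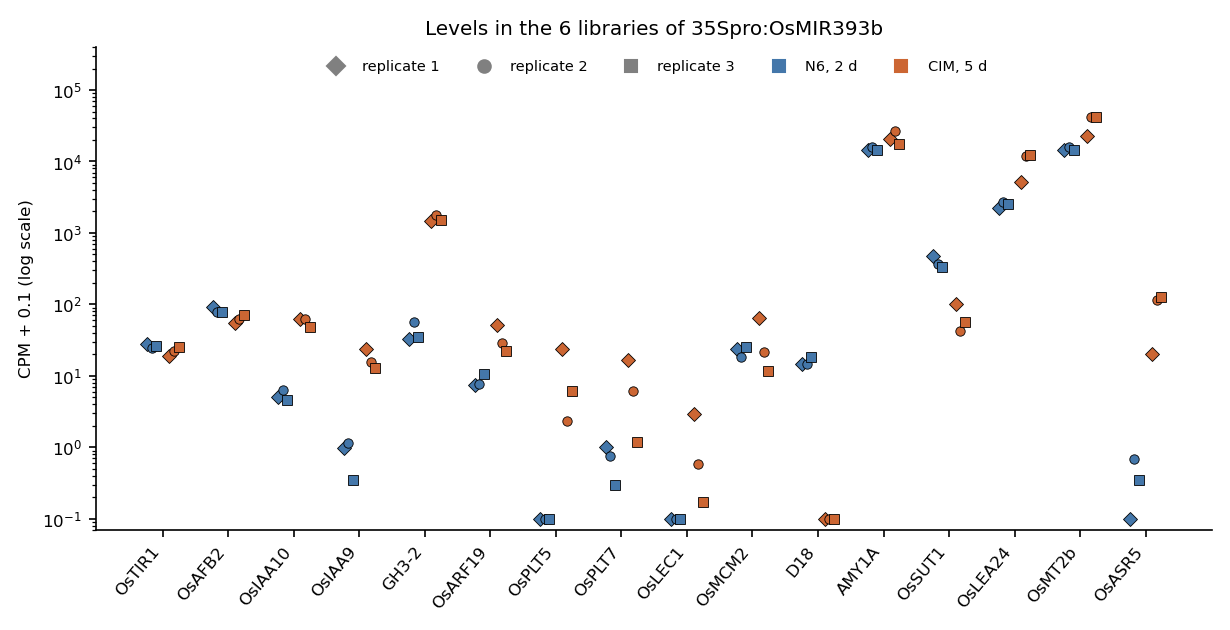
Levels of genes named in the text in each of the 6 libraries of the line, as CPM + 0.1 on a log axis. Points are single libraries, coloured by medium and with replicate 1 as diamonds, and GH3-2 and OsIAA10 lie in separate ranges on N6 and CIM while OsTIR1 overlaps.

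Genes of other hormone pathways moved in both directions. Among cytokinin oxidases, which degrade cytokinin, and type-A response regulators, which dampen its signal, 5 of 14 rose and 1 fell. Without replicate 1 the counts were 3 and 1. Gn1a, the cytokinin oxidase OsCKX2, went from 0.416, 0.742 and 0.845 to 8.31, 9.70 and 4.54 CPM (log2 fold change 3.49, standard error 0.43, adjusted p = 1.6e-05). OsCKX3 fell from 39.2, 53.1 and 56.2 to 23.9, 22.0 and 17.5 CPM (log2 fold change -1.23, standard error 0.27, adjusted p = 0.003).

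The gibberellin oxidase list held 2 genes that rose and 3 that fell of 11, with and without replicate 1. D18 (chromosome 1, 4003659 to 4004887), a gibberellin 3-oxidase that makes the active hormone, was at 14.7, 14.7 and 18.5 CPM on N6 and at 0 in all 3 CIM libraries. This is at least 81.4-fold lower (adjusted p = 2.6e-06). GA20OX1, which acts a step earlier, fell from 186, 145 and 179 to 43.3, 53.3 and 58.2 CPM (log2 fold change -1.72, standard error 0.46, adjusted p = 0.011). OsGA2ox8, of the class that inactivates gibberellins, went from 0, 0.121 and 0.114 to 7.46, 3.37 and 3.65 CPM (adjusted p = 2.3e-05). In all of these genes every CIM library lay on the same side of the N6 libraries, as in 17.1% (above) and 19.6% (below) of all genes tested.

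Of the 21 abscisic acid genes, 3 rose and 2 fell, and without replicate 1 3 rose and 2 fell. Protein kinases of abscisic acid signalling moved in opposite directions. SAPK3 went from 20.6, 24.0 and 23.3 to 42.1, 105 and 117 CPM (log2 fold change 1.96, standard error 0.26, adjusted p = 3.1e-05), with replicate 1 the lowest at 5 d, and SAPK10 fell from 33.2, 45.0 and 52.9 to 15.6, 18.02 and 19.8 CPM (log2 fold change -1.29, standard error 0.19, adjusted p = 8.7e-05). Of 41 lipoxygenase and jasmonate genes, 4 rose and 5 fell. Without replicate 1 the counts were 2 and 6. OsJAZ2, a repressor of jasmonate signalling, went from 1.55, 0.545 and 0.179 to 39.7, 11.6 and 5.53 CPM (log2 fold change 4.64, standard error 0.75, adjusted p = 0.0002).

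Regulators of embryo development reached low levels in the line, and their values depended on the replicate. OsLEC1, a subunit of the NF-Y complex needed for embryo identity in Arabidopsis, was at 0 in all N6 libraries and held 2.85, 0.479 and 0.0709 CPM at 5 d. Its mean was at least 5.98-fold higher (adjusted p = 0.0051). This bound rests on the mean of all CIM libraries, most of which came from replicate 1. In replicate 3 OsLEC1 lay under 12 counts, a level that cannot be told from 0. OsLFL1, a B3-domain factor, was at 0.192, 0 and 0 CPM on N6 and 3.58, 1.45 and 0.461 CPM at 5 d on CIM (adjusted p = 0.00084). Both kept their call without replicate 1, although replicate 1 held more than the other replicates. HAP3K, another NF-Y subunit, fell from 4.64, 4.92 and 4.32 to 1.34, 0.726 and 0.922 CPM (log2 fold change -2.21, standard error 0.49, adjusted p = 0.0031). OsVP1, the rice homolog of the embryo regulator ABI3, was at 52.8, 41.4 and 28.7 CPM on N6 and 36.5, 20.8 and 10.03 CPM at 5 d on CIM. It was not called with all libraries (log2 fold change -0.87, standard error 0.32, adjusted p = 0.054) but was called as a fall at -1.41 (adjusted p = 0.0017) without replicate 1. Of the 5 embryo regulators tested, 2 rose and 1 fell, and without replicate 1 the counts were 2 and 2.

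PLT and related AINTEGUMENTA-like factors keep stem cells of the root in Arabidopsis and serve in regeneration. In the line 6 of 12 rose and 1 fell, with a median log2 fold change of 2.01. Without replicate 1, 3 rose and 3 fell, and the median was 0.97. OsPLT5 (chromosome 1, 39141130 to 39145472) was at 0 on N6 and held 23.5, 2.21 and 6.01 CPM at 5 d, at least 55.7-fold higher (adjusted p = 0.0039). OsPLT7 went from 0.911, 0.651 and 0.195 to 16.4, 5.96 and 1.10 CPM (log2 fold change 3.73, standard error 0.88, adjusted p = 0.0045). These calls remained without replicate 1, but the bound for OsPLT5 rests on the mean of all CIM libraries, with replicate 1 the highest.

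The calls of OsPLT2, OsPLT6 and OsPLT9 were lost without it. OsPLT2 was at 4.38, 0.894 and 4.404 CPM on N6 and 40.0, 5.76 and 7.84 CPM at 5 d on CIM, with log2 fold change 2.47, standard error 0.87, adjusted p = 0.045, and 1.08 (adjusted p = 0.36) without replicate 1. OsPLT6 was at 5.53, 5.79 and 6.34 CPM on N6 and 29.9, 13.2 and 5.50 CPM at 5 d on CIM, with log2 fold change 1.46, standard error 0.44, adjusted p = 0.021, and 0.67 (adjusted p = 0.22) without replicate 1. OsPLT9 went from 2.80, 2.44 and 2.50 to 13.3, 6.35 and 3.07 CPM, with log2 fold change 1.55, standard error 0.36, adjusted p = 0.0044, and 0.87 (adjusted p = 0.039) without replicate 1. In OsPLT6 replicate 3 lay at the level of N6. OsPLT1 showed the reverse, as its call appeared only without replicate 1. It was at 33.2, 31.6 and 26.7 CPM on N6 and 29.7, 11.6 and 11.7 CPM at 5 d on CIM, with log2 fold change -0.79, standard error 0.33, adjusted p = 0.094, and fell by 1.39 on the log2 scale without replicate 1. Of the 12 members detected at 5 d, replicate 1 was the highest library in 11 and at least 2-fold above both other replicates in 10.

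WOX homeobox factors act in stem cell niches and in the early embryo. Of 11 WOX genes, 3 rose and 2 fell, and without replicate 1 the counts were 2 and 3. OsWOX2 was at 0, 0.0303 and 0 CPM on N6 and 2.11, 0.231 and 0.0532 CPM at 5 d on CIM (adjusted p = 0.0024). OsWOX9C was at 0 on N6 and held 0.458, 0.0330 and 0.0355 CPM at 5 d (adjusted p = 0.011). Outside replicate 1 both genes were close to 0, and no fold is given at this level. DWT1 held 8.601, 0.512 and 0.869 CPM at 5 d and 0.815, 0.212 and 0.585 CPM on N6, and its call rested on replicate 1 (adjusted p = 0.016, and 0.67 without it).

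Few genes of cell division were called. Of 47 core histone genes, which are expressed in S phase, 1 rose and 1 fell. Of the 10 MCM genes, subunits of the replicative helicase and their relatives, 0 rose and 0 fell. Without replicate 1, 1 fell. By edgeR at an unadjusted p under 0.05 and by DESeq2 the count for MCM genes was 0 as well. For other replication factors the counts were 1 and 0 of 39, for kinesins 1 and 1 of 42, and for A-, B- and D-type cyclins 3 and 1 of 24. Without replicate 1 neither histone call remained, and the counts were 1 and 1 for replication factors, 0 and 3 for kinesins and 2 and 2 for cyclins. With all libraries these shares are near or below the 10.6% of all genes called, apart from the cyclins (16.7%). The cyclin Os12g0588800 went from 1.29, 1.71 and 2.67 to 19.6, 9.19 and 7.04 CPM (log2 fold change 2.66, standard error 0.37, adjusted p = 5.4e-05).

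Behind these low counts, replicate 1 again differed from its group. The summed level of the core histone genes was 1316 to 1453 CPM on N6, and at 5 d it was 2218 CPM in replicate 1, 1444 CPM in replicate 2 and 1323 CPM in replicate 3. The summed MCM level was 116 to 146 CPM on N6 and 275, 133 and 104 CPM at 5 d. Replicates 2 and 3 were thus close to or below N6 in both sums, while replicate 1 was well above. OsMCM2 was at 23.6, 18.4 and 25.0 CPM on N6 and 63.4, 21.4 and 11.6 CPM at 5 d on CIM and OsMCM6 at 12.9, 7.77 and 13.3 CPM on N6 and 36.4, 11.1 and 6.97 CPM at 5 d on CIM, and neither was called. The median log2 fold change of the histone genes was 0.57 with replicate 1 and -0.02 without it.

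The 171 cytosolic ribosomal protein genes had a median log2 fold change of -0.41, and 0 rose and 0 fell by edgeR (1 at an unadjusted p under 0.05, and 2 by DESeq2). Without replicate 1, 6 fell. Their summed level was 34291 to 37429.5 CPM on N6, 31974 CPM in replicate 1 at 5 d, and 24232 to 24316 CPM in the other replicates. OsRPL38 was at 141, 137 and 159 CPM on N6 and 112, 79.9 and 84.6 CPM at 5 d on CIM, below the minimum fold (log2 fold change -0.66, standard error 0.12, adjusted p = 0.00088).

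**Figure D2:**
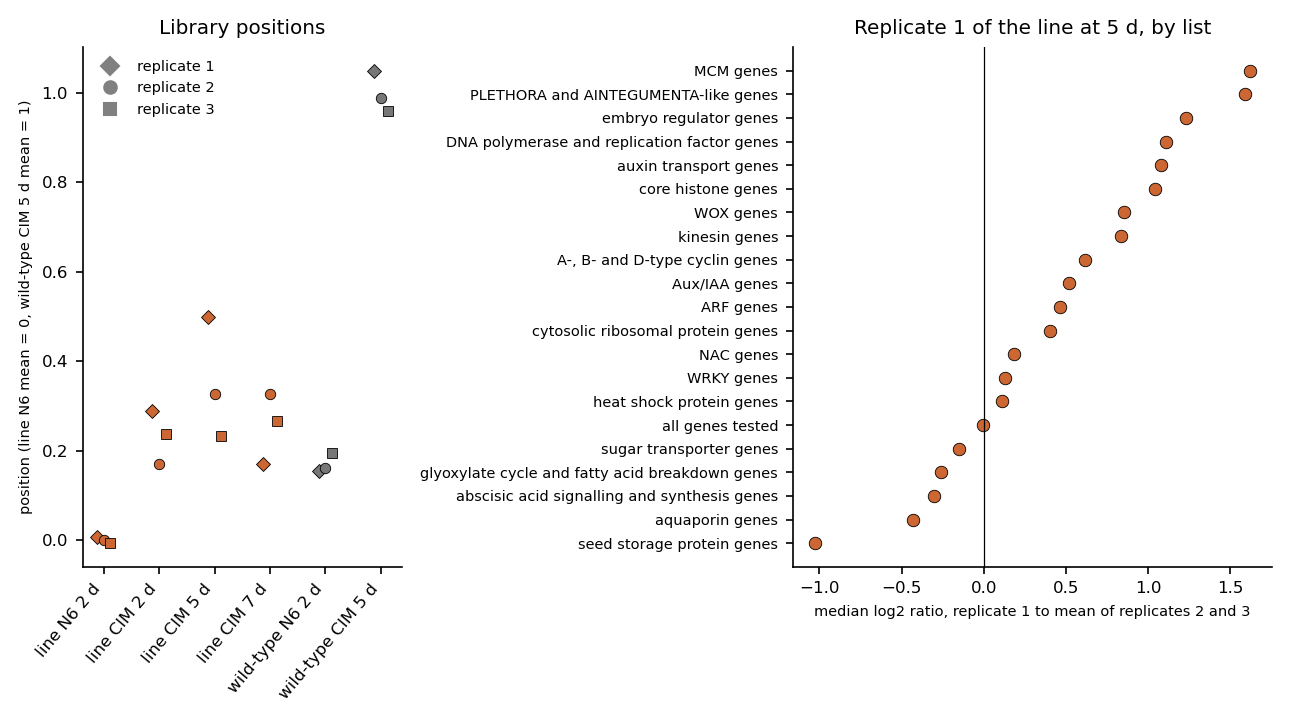
Left, position of every library of the line and of the wild-type references between the mean of the line on N6 (0) and the mean of wild-type at 5 d on CIM (1). Right, for gene lists, the median log2 ratio of replicate 1 to the mean of replicates 2 and 3 of the line at 5 d. Replicate 1 sits at 0.498, above the other replicates of its group, and its PLT and MCM genes have median log2 ratios of 1.59 and 1.62.

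Genes that act on the cell wall were among the 10 largest rises in the line, and 3 of them had similar levels in all replicates. OsCel9A (chromosome 1, 6564697 to 6568140), described as a cellulase, was at 0 on N6 and held 78.3, 68.4 and 57.6 CPM at 5 d, at least 359-fold higher (adjusted p = 1.2e-06). OsGH9B15 (chromosome 2, 1237099 to 1240160), also of the endoglucanase family, went from 0.144, 0 and 0 to 23.4, 24.9 and 20.1 CPM (adjusted p = 1.9e-07). Os04g0552000 (chromosome 4, 27645701 to 27647185), which carries a barwin-related endoglucanase domain found in expansins, was at 0 on N6 and at 74.9, 89.5 and 82.9 CPM on CIM, at least 435-fold higher (adjusted p = 1.2e-07). In the wild-type libraries at 5 d these genes were at 99.4 ± 32.0, 44.5 ± 8.52 and 99.3 ± 42.4 CPM.

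Neighbouring genes Os05g0531200 and Os05g0531400, which encode proteins with a pollen Ole e 1 and extensin domain, were also at 0 on N6. At 5 d the former held 126, 12.7 and 26.2 CPM (at least 290.0-fold higher) and the latter 36.3, 4.97 and 6.84 CPM (at least 84.6-fold higher). Os01g0936900, a peptidase A1 domain gene, held 29.5, 2.06 and 4.64 CPM (at least 63.8-fold higher). Here replicate 1 was several-fold above the other replicates, but the calls remained without it. The bounds rest on means that include it. For Os06g0611300, with no known function, the values were 22.2, 4.32 and 7.50 CPM (at least 59.9-fold higher). OsGSTF12, a phi-class glutathione S-transferase, held 16.8, 33.1 and 32.8 CPM (at least 145-fold higher), and Os12g0515800, a hypothetical gene, went from 0, 0 and 0.114 to 11.99, 72.7 and 64.4 CPM (adjusted p = 2.1e-05). In the last genes named, replicate 1 was the lowest at 5 d.

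D18 was among the 10 largest falls, and the others follow. Os08g0473900, an alpha-amylase of the RAmy3D type, went from 76.8, 77.7 and 15.7 to 2.19, 0.198 and 0.337 CPM (log2 fold change -5.93, standard error 1.37, adjusted p = 0.0041). OsLCB2a2, described as a serine palmitoyltransferase of sphingolipid synthesis, fell from 18.6, 45.9 and 18.7 to 0.340, 0.6602 and 0.585 CPM (log2 fold change -5.72, standard error 0.94, adjusted p = 0.00026). OsHyPRP14, with a lipid-transfer type domain, fell from 318, 403 and 504 to 42.4, 3.53 and 4.27 CPM (log2 fold change -4.61, standard error 1.01, adjusted p = 0.0026), with the highest remaining level in replicate 1. The lipoxygenase gene Os10g0361300 went from 23.4, 32.9 and 46.4 to 4.197, 0.281 and 0.372 CPM and the aldehyde dehydrogenase OsALDH3E2 from 15.5, 6.97 and 8.86 to 0.266, 0.495 and 0.390 CPM. PRX125, a peroxidase, went from 17.9, 23.0 and 40.5 to 1.15, 0.132 and 0.532 CPM and the extensin-domain gene Os10g0205700 from 14.8, 18.3 and 11.96 to 1.08, 0.380 and 0 CPM. Os10g0150400 and Os10g0150700, a pair of similar genes of unknown function, went from 19.3, 30.4 and 31.8 to 0.576, 0.545 and 1.10 CPM and from 19.7, 20.3 and 27.4 to 1.20, 0.495 and 0.922 CPM. In none of these did the groups overlap, since the choice of genes required it, as it did for the rises. Where near-identical copies exist, how reads were shared among them is not given in the sources used here.

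Among gene families of the cell wall as a whole, calls went both ways. Of 46 xyloglucan endotransglucosylase and endoglucanase genes, 6 rose and 5 fell (3 and 6 without replicate 1). Of 40 expansins, which loosen walls, 4 rose and 4 fell. OsEXP4 fell from 359, 382 and 408 to 127, 52.2 and 53.6 CPM (log2 fold change -2.31, standard error 0.36, adjusted p = 0.00015). Of 43 cellulose synthase and related genes, 1 rose and 3 fell (1 and 6 without replicate 1). OsCesA8, which contributes to the primary wall, was at 506, 523 and 530.0 CPM on N6 and 318, 341 and 355 CPM at 5 d on CIM, under the minimum fold. Class III peroxidases, which can stiffen walls, had 15 genes that rose and 18 that fell of 82, a share of 40.2% called (10 and 20 without replicate 1). The peroxidase prx60 went from 0.128, 0.288 and 0 to 14.5, 14.5 and 23.4 CPM (adjusted p = 1.5e-06), and prx109 fell from 197, 167 and 181 to 56.4, 35.6 and 41.8 CPM (log2 fold change -2.02, standard error 0.26, adjusted p = 2.1e-05). Of 26 germin-like protein genes 3 rose and 0 fell, among them GLP8-3, which went from 0.112, 0.121 and 0.618 to 58.8, 35.9 and 42.8 CPM (log2 fold change 7.34, standard error 0.80, adjusted p = 4.2e-06). GLP8-3 was near 0 on N6, so the size of its fold is uncertain. Of 60 lipid transfer protein genes 7 rose and 6 fell (4 and 5 without replicate 1).

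**Figure D3:**
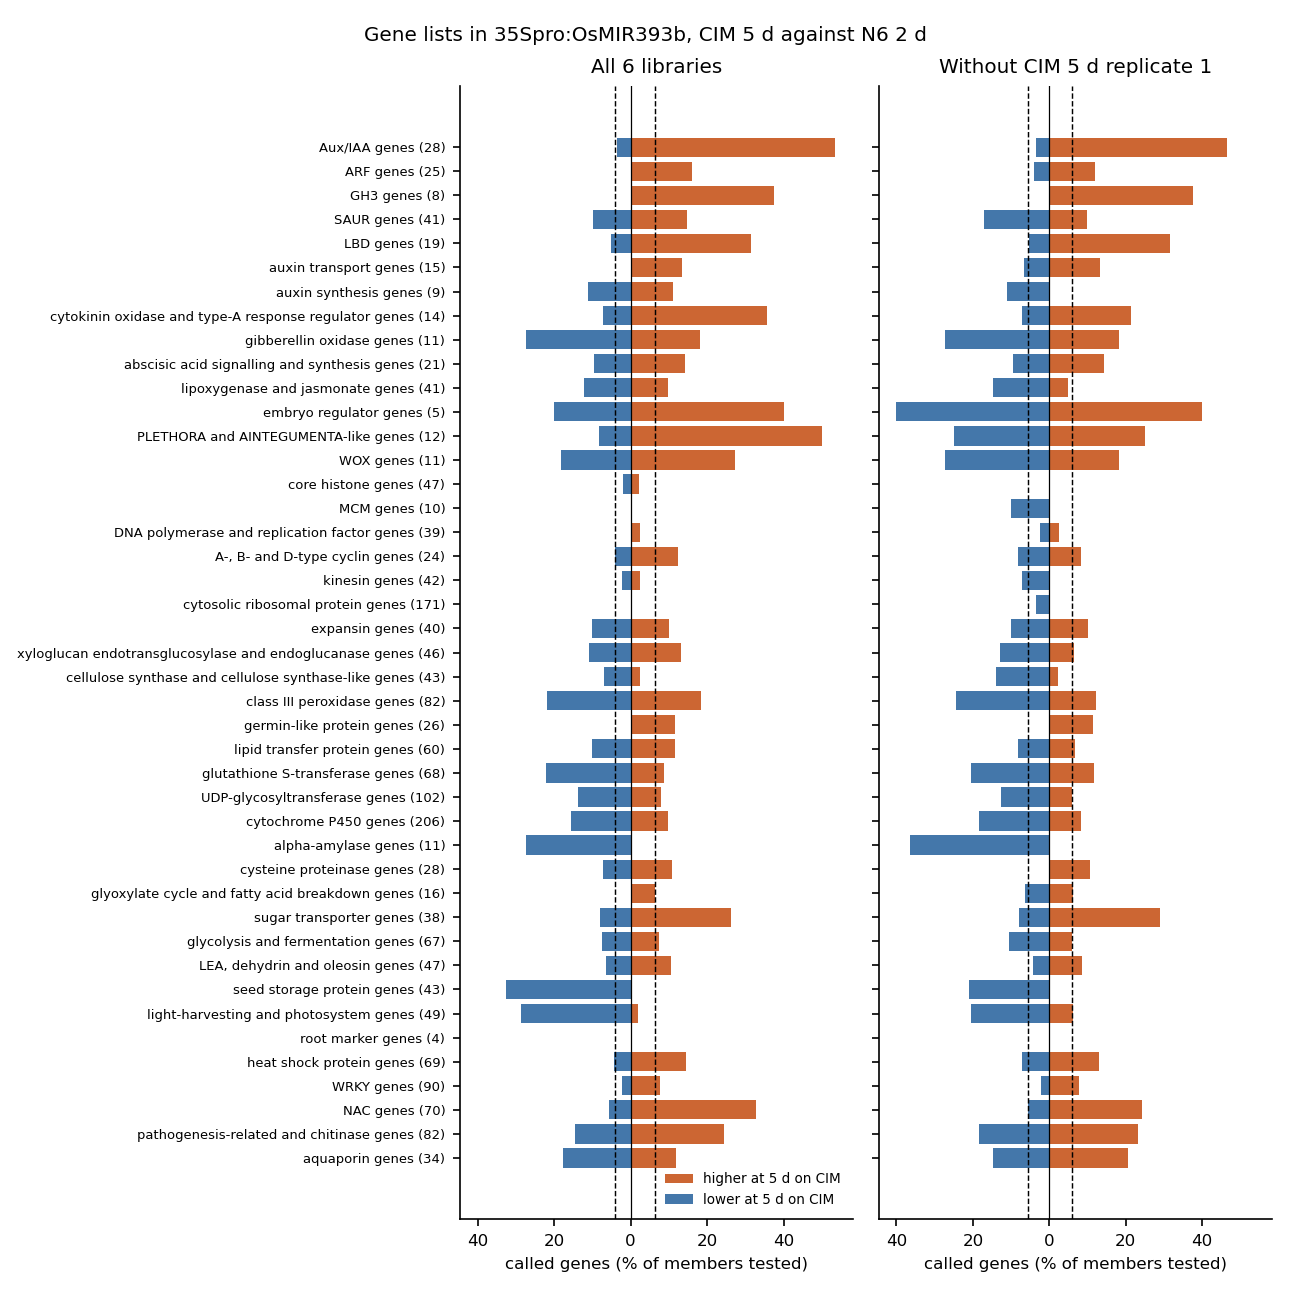
Share of the tested members of gene lists called higher (right of 0) and lower (left of 0) at 5 d on CIM against N6 in the line, with all libraries (left panel) and without replicate 1 (right panel), and the number of members tested in parentheses. Dashed lines mark the share among all genes tested, in the left panel 6.35% higher and 4.21% lower, and the bars of the Aux/IAA, PLT and NAC lists reach well past it to the right.

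Sugar transporters move the products of reserve breakdown through the scutellum. Of 38 tested, 10 rose and 3 fell (34.2% against 10.6% of all genes), and without replicate 1 11 rose and 3 fell. 11N3 (chromosome 11, 18171707 to 18174478), the sucrose exporter OsSWEET14, was at 0.336, 0.288 and 0.244 CPM on N6 and 76.2, 91.2 and 93.1 CPM at 5 d on CIM (log2 fold change 8.22, standard error 0.83, adjusted p = 1.6e-06). OsSUT1, a sucrose importer of the scutellum and phloem, fell from 483, 366 and 329 to 99.4, 41.7 and 56.1 CPM (log2 fold change -2.58, standard error 0.40, adjusted p = 0.00016). The groups did not overlap in either gene. OsSWEET4, the most abundant member, was at 1796, 1977 and 2225 CPM on N6 and 2058, 2797 and 3652 CPM at 5 d on CIM and was not called. In glycolysis and fermentation 5 rose and 5 fell of 67, with SUS4, a sucrose synthase, going from 110.0, 147 and 94.6 to 346, 453 and 408 CPM (log2 fold change 1.78, standard error 0.14, adjusted p = 1.1e-07). In the glyoxylate cycle and fatty acid breakdown 1 rose and 0 fell of 16 (1 and 1 without replicate 1).

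Of 11 alpha-amylase genes, which break down starch and are made by the scutellar epithelium and aleurone, 0 rose and 3 fell, and 4 fell without replicate 1. Most of the summed level belonged to AMY1A, which was at 14640.5, 16061 and 14410.4 CPM on N6 and 20886, 26711 and 17809 CPM at 5 d on CIM and was not called (log2 fold change 0.54, standard error 0.48, adjusted p = 0.46). The whole list summed to 19416 to 22578 CPM on N6 and 23193 to 34980.1 CPM at 5 d. Of 28 cysteine proteinase genes, 3 rose and 2 fell (3 and 0 without replicate 1). CP (Os08g0556900) went from 0, 0.485 and 0.683 to 42.9, 31.9 and 36.1 CPM (log2 fold change 6.56, standard error 0.60, adjusted p = 4.4e-07), while OsSAG12-1, related to a senescence gene of Arabidopsis, was at 3980.4, 4441 and 3574 CPM on N6 and 594, 1033 and 501 CPM at 5 d on CIM, and its call was lost whichever of the 6 libraries was left out (log2 fold change -2.50, standard error 0.89, adjusted p = 0.048, and -2.38 (adjusted p = 0.11) without replicate 1).

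Late embryogenesis abundant (LEA) proteins, dehydrins and oleosins, which protect or build the dry seed, had 5 genes that rose and 3 that fell of 47 (4 and 2 without replicate 1). OsLEA24 alone made up most of their summed level at 5 d. It was at 2267, 2708 and 2559 CPM on N6 and 5164, 11871 and 12333 CPM at 5 d on CIM (log2 fold change 1.96, standard error 0.39, adjusted p = 0.0012), with replicate 1 lowest at 5 d but above N6. OLE18, an oleosin, went from 1.33, 1.70 and 0.959 to 26.1, 22.4 and 1.13 CPM (log2 fold change 3.64, standard error 0.77, adjusted p = 0.0021), and replicate 3 stayed at the level of N6.

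Genes of defence and detoxification were called in both directions. NAC transcription factors had 23 genes that rose and 4 that fell of 70 (38.6% called), with a median log2 fold change of 0.74. Without replicate 1 the counts were 17 and 4. ONAC072 was at 0 on N6 and held 7.52, 5.91 and 5.71 CPM at 5 d, at least 33.7-fold higher (adjusted p = 1.3e-07). ONAC013 went from 0.543, 0.424 and 0.731 to 21.0, 9.57 and 7.22 CPM (log2 fold change 4.48, standard error 0.47, adjusted p = 2.8e-06), and ONAC005 from 7.22, 7.95 and 6.91 to 24.2, 28.4 and 30.9 CPM (log2 fold change 1.92, standard error 0.18, adjusted p = 6.8e-07). Of 90 WRKY genes 7 rose and 2 fell, a share of 10%.

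Pathogenesis-related and chitinase genes had 20 rises and 12 falls among 82. The chitinase Cht9 went from 1.55, 2.33 and 0.715 to 46.9, 83.4 and 72.1 CPM (log2 fold change 5.46, standard error 0.70, adjusted p = 2.3e-05), and Os05g0375400 from 0.192, 0.121 and 0.260 to 44.3, 45.3 and 31.5 CPM (log2 fold change 7.72, standard error 0.76, adjusted p = 1.2e-06). Os05g0375400 was near 0 on N6, so the size of its fold is uncertain. Of the enzymes that modify toxins and hormones, 6 rose and 15 fell of 68 glutathione S-transferases, 8 and 14 of 102 UDP-glycosyltransferases, and 20 and 32 of 206 cytochromes P450. The shares called were 30.9%, 21.6% and 25.2% in this order, against 10.6% of all genes (6.35% higher and 4.21% lower). In these families more genes fell than rose. Without replicate 1 the counts were 8 and 14, 6 and 13, and 17 and 38. Os08g0105800, a P450 gene, went from 8.23, 19.9 and 9.13 to 102, 191 and 170.3 CPM (log2 fold change 3.64, standard error 0.37, adjusted p = 1.7e-06). Of 69 heat shock protein genes 10 rose and 3 fell (9 and 5 without replicate 1). Os10g0159600 went from 9.48, 6.53 and 9.05 to 24.5, 125 and 175 CPM (log2 fold change 3.69, standard error 0.59, adjusted p = 0.00018), with replicate 1 far below the other replicates.

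Aquaporins, channels for water and small solutes, had 4 rises and 6 falls among 34, and 7 and 5 without replicate 1. LSI1, the silicon channel of rice roots, went from 9.17, 12.8 and 9.39 to 53.9, 149.7 and 120.0 CPM (log2 fold change 3.37, standard error 0.46, adjusted p = 4.5e-05). The aquaporin Os07g0448100 fell from 459.9, 547 and 599.8 to 113, 129 and 88.5 CPM (log2 fold change -2.28, standard error 0.24, adjusted p = 2.9e-06).

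Markers of other tissues that a dissected scutellum could carry also moved between the groups. Of 49 light-harvesting and photosystem genes, markers of green shoot, 1 rose and 14 fell (median log2 fold change -1.56), and 3 and 10 did without replicate 1. The list summed to 809 to 1126 CPM on N6 and 243 to 438 CPM at 5 d, and 11 of its 64 members were at 0 in all 6 libraries. RbcS1, the small subunit of RuBisCO, fell from 312, 247 and 289.6 to 83.8, 95.2 and 109 CPM (log2 fold change -1.56, standard error 0.37, adjusted p = 0.0048). Of 43 seed storage protein genes, most of them products of the endosperm, 0 rose and 14 fell (median -2.11), and 9 fell without replicate 1. They summed to 694 to 816 CPM on N6 and 299 to 366 CPM at 5 d, and 6 of 55 were at 0 in all 6 libraries. The prolamin gene Prol-01 went from 429.6, 437 and 389 to 135, 136 and 170.2 CPM (log2 fold change -1.51, standard error 0.52, adjusted p = 0.042), and its call was lost whichever of the 6 libraries was left out. Of the 6 root markers 4 could be tested and 0 were called by edgeR (2 at an unadjusted p under 0.05, and 1 by DESeq2), the smallest adjusted p being 0.053 for RCc3. The tested members had a median log2 fold change of -1.22 (-1.66 without replicate 1), while the list summed to 44.2 to 93.1 CPM on N6 and 116 to 134 CPM at 5 d. With replicate 1 of the N6 group left out instead, the median was 0.145, so its sign depended on the libraries. LSI1, a root gene given above with the aquaporins, was not in this list and was called as a rise. How far different amounts of these tissues entered into the results above was not tested. Of the markers of the embryo itself, OsVP1 was at 40.95 ± 12.04 CPM on N6 and OsLEC1 at 0 in all 3 libraries.

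The genes in which replicate 1 lay farthest from its group are given as a description only, since they were picked for that distance. OsCCR1, described as a cinnamoyl-CoA reductase of lignin synthesis, held 84.1, 1.83 and 1.49 CPM at 5 d, and the chitinase gene C10122 held 92.3, 2.41 and 1.51 CPM. On N6 the line was at 8.14, 10.6 and 1.82 CPM and 100.4, 104 and 67.3 CPM, so in C10122 replicate 1 lay in the range of N6 and the other replicates far below it. After 2 d on CIM the line held 204 ± 93.2 CPM of OsCCR1 (mean ± SD, n = 3). In wild-type at 5 d the former was at 26.9 ± 6.002 CPM and the latter at 8.97 ± 3.07 CPM. Os09g0483100, with an EF-hand domain, held 17.5, 0.182 and 0.0709 CPM and OsEnS-58 19.6, 0.314 and 0.213 CPM, the latter against 25.4, 22.2 and 14.7 CPM on N6. Os11g0484450 and Os07g0523100 were at 98.7 and 28.0 CPM in replicate 1 and at 0 in the other replicates. In the other direction, OsASR5, an abscisic acid, stress and ripening protein, held 19.8, 115 and 126 CPM, and Os09g0451133, a hypothetical gene, 2.76, 22.5 and 27.6 CPM. Both rose against N6 with and without replicate 1. Os08g0216600 held 0.266, 12.9 and 12.2 CPM at 5 d and 9.73, 10.8 and 12.3 CPM on N6. Over all genes tested, replicate 1 was at least 2-fold above both other replicates in 3022 and at least 2-fold below both in 1840. Among seed storage protein genes it was the lowest in 30 of 42 detected.

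The change from N6 to 5 d on CIM was then set against the same change in wild-type, as a test of the difference itself in the same fit. The change was higher in the line for 3500 genes and lower for 1932, together 18.3% of the genes tested (11.8% and 6.5%). This split depended on the scaling. With library totals alone it was 2488 higher and 3730 lower (8.37% and 12.6%), and the median difference over all genes moved from 0.00295 to -0.327. Without replicate 1 the counts were 3830 and 3197 (12.7% and 10.6%). The genes named next had the same sign under both scalings.

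Of the 25 ARF genes, 9 had a lower change in the line (36% called). OsARF23 went from 134 ± 12.1 to 619 ± 22.3 CPM in wild-type and from 149.7 ± 23.5 to 207 ± 44.6 CPM in the line (difference in log2 fold change -1.73, standard error 0.23, adjusted p = 2.2e-05), and OsARF16 from 19.0 ± 1.56 to 84.3 ± 17.8 CPM in wild-type and from 17.1 ± 1.41 to 23.6 ± 10.3 CPM in the line (difference in log2 fold change -1.68, standard error 0.37, adjusted p = 0.0021). In both genes the wild-type mean was several-fold higher at 5 d than on N6. Of the 28 Aux/IAA genes 7 had a lower and 2 a higher change in the line. OsIAA4 went from 1.23 ± 0.218 to 34.9 ± 0.413 CPM in wild-type and from 0.850 ± 0.336 to 8.33 ± 2.93 CPM in the line (difference in log2 fold change -1.53, standard error 0.36, adjusted p = 0.0028). OsIAA10 was not called in this test, going from 6.24 ± 0.542 to 114 ± 6.08 CPM in wild-type and from 5.20 ± 0.862 to 57.6 ± 7.72 CPM in the line (difference in log2 fold change -0.72, standard error 0.20, adjusted p = 0.0083). GH3-2 went from 156 ± 37.2 to 774 ± 117 CPM in wild-type and from 40.8 ± 13.0 to 1583 ± 163 CPM in the line (difference in log2 fold change 2.96, standard error 0.32, adjusted p = 3.3e-06), which is a larger change in the line, from a lower level on N6.

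OsPIN1a and OsPIN1d were among the 5 of 15 auxin transport genes with a lower change in the line. OsPIN1a went from 9.92 ± 2.40 to 124 ± 18.4 CPM in wild-type and from 10.7 ± 0.485 to 28.5 ± 21.1 CPM in the line (difference in log2 fold change -2.22, standard error 0.83, adjusted p = 0.047), and OsPIN1d from 3.35 ± 3.68 to 49.1 ± 3.78 CPM in wild-type and from 6.19 ± 0.512 to 7.84 ± 5.89 CPM in the line (difference in log2 fold change -3.53, standard error 1.16, adjusted p = 0.026). Of the 12 genes of the PLT list 4 had a lower and 1, OsPLT10, a higher change in the line, and without replicate 1 7 had a lower one. OsPLT6 went from 10.9 ± 2.38 to 109 ± 4.44 CPM in wild-type and from 5.88 ± 0.413 to 16.2 ± 12.5 CPM in the line (difference in log2 fold change -1.86, standard error 0.61, adjusted p = 0.025), and OsPLT1 from 30.2 ± 5.80 to 65.9 ± 4.13 CPM in wild-type and from 30.5 ± 3.36 to 17.6 ± 10.4 CPM in the line (difference in log2 fold change -1.92, standard error 0.47, adjusted p = 0.0044). OsPLT2 did not pass with all libraries, going from 2.24 ± 0.187 to 93.7 ± 15.2 CPM in wild-type and from 3.23 ± 2.02 to 17.9 ± 19.2 CPM in the line (difference in log2 fold change -2.91, standard error 1.19, adjusted p = 0.069), and was called without replicate 1, at -4.31 (adjusted p = 0.0074). Nor did OsPLT7 pass with all libraries (difference in log2 fold change -2.30, standard error 1.17, adjusted p = 0.14), and it too was called without replicate 1, at -3.45 (adjusted p = 0.023). OsVP1 went from 28.6 ± 1.79 to 92.6 ± 0.534 CPM in wild-type and from 40.95 ± 12.04 to 22.4 ± 13.3 CPM in the line (difference in log2 fold change -2.56, standard error 0.45, adjusted p = 0.00031). OsLEC1, at 0 on N6 in both genotypes, reached 13.3 ± 3.35 CPM in wild-type and 1.13 ± 1.502 CPM in the line at 5 d. With both N6 groups at 0, the difference between the changes could not be estimated for this gene. OsWOX2 reached 3.79 ± 0.546 CPM in wild-type and 0.799 ± 1.14 CPM in the line.

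Of genes of division, 14 of 47 histone and 12 of 39 replication factor genes had a lower change in the line, and without replicate 1 27 and 27 did. OsMCM2 did not pass with all libraries, going from 38.9 ± 12.2 to 177 ± 20.6 CPM in wild-type and from 22.3 ± 3.49 to 32.1 ± 27.5 CPM in the line (difference in log2 fold change -1.66, standard error 0.82, adjusted p = 0.13), but was called without replicate 1, at -2.62 (adjusted p = 0.012). So was OsMCM6, at -2.45 (adjusted p = 0.031), and together 7 of 10 MCM genes had a lower change in the line without replicate 1. Of 171 ribosomal protein genes 20 had a lower and 2 a higher change, a share of 12.9% against 18.3% of all genes. Their count depended on the settings, with 56 lower without replicate 1 and 107 lower with library totals. The LEA, dehydrin and oleosin list had 24 of 47 genes with a lower and 2 with a higher change in the line. The oleosin OsOLE4 went from 1.57 ± 0.0523 to 45.3 ± 18.2 CPM in wild-type and from 13.2 ± 6.37 to 8.74 ± 5.91 CPM in the line (difference in log2 fold change -5.43, standard error 0.99, adjusted p = 0.00042).

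Of all genes 11.8% had a higher and 6.5% a lower change. Many lists shared this direction, among them sugar transporters (11 higher and 2 lower) and glutathione S-transferases (18 and 5). Families given in more detail are peroxidases (27 higher and 3 lower), UDP-glycosyltransferases (25 and 2), cytochromes P450 (46 and 17), aquaporins (17 and 1) and photosystem genes (17 and 1). These families had 82, 102, 206, 34 and 49 members tested, in this order. The shares called were 36.6%, 26.5%, 30.6%, 52.9% and 36.7%, against 18.3% of all genes. With library totals the counts were 24 and 7 for peroxidases, 23 and 4 for UDP-glycosyltransferases, 38 and 21 for cytochromes P450, 13 and 2 for aquaporins and 15 and 2 for photosystem genes. OsBURP02, a BURP-domain gene, fell in the line from 1106, 1017 and 942 to 107, 183 and 304 CPM, and in wild-type it went from 316 ± 243 to 0.0350 ± 0.0605 CPM. OsBURP07 went from 30.7, 29.2 and 42.6 to 2.50, 6.97 and 9.95 CPM in the line, a fall whose call was lost whichever library of the line was left out, and was at 0 in wild-type at 5 d. OsPAL03, a phenylalanine ammonia-lyase of the phenylpropanoid pathway, rose in the line from 0.416, 2.70 and 4.78 to 45.7, 196 and 198 CPM, and in wild-type it went from 11.2 ± 2.12 to 0.572 ± 0.499 CPM. AMY1A went from 6966 ± 950.5 to 712 ± 340.2 CPM in wild-type and from 15037 ± 894 to 21802 ± 4521 CPM in the line (difference in log2 fold change 3.83, standard error 0.70, adjusted p = 0.00044), and its level at 5 d was far lower in wild-type than in the line. The amylase Os08g0473900 had the opposite pattern, from 7.10 ± 6.60 to 17.5 ± 11.9 CPM in wild-type and from 56.8 ± 35.5 to 0.907 ± 1.11 CPM in the line (difference in log2 fold change -7.24, standard error 1.74, adjusted p = 0.0037).

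**Figure D4:**
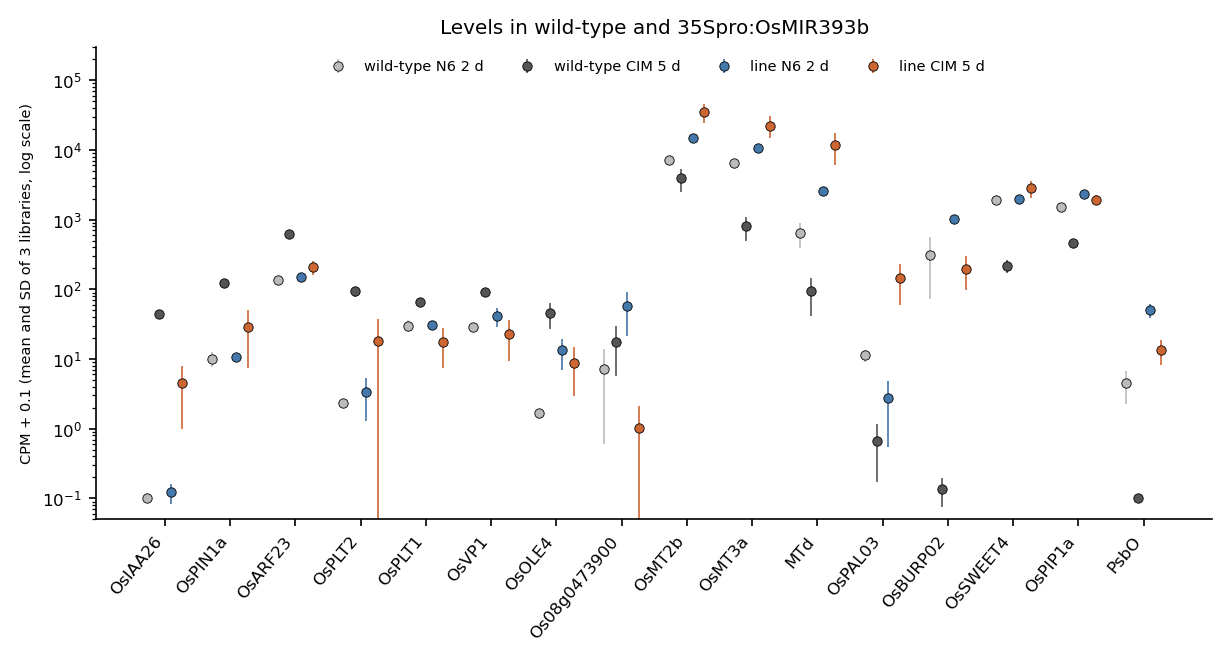
Levels of genes named in the text in wild-type and in the line on N6 at 2 d and on CIM at 5 d, as mean and SD of 3 libraries of CPM + 0.1 on a log axis, with lower bars cut at the axis. OsPIN1a, OsPLT1 and OsVP1 are highest in wild-type at 5 d, and OsPAL03 is highest in the line at 5 d.

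The medium was the same when the line at 5 d was compared with the line at 2 d on CIM, so these groups differed in time of culture. Here 1661 genes were higher and 1261 lower at 5 d, or 5.59% and 4.24% of the genes tested (9.84% together), and without replicate 1 the counts were 1868 and 2013. With limma on log2(FPKM + 1) they were 839 and 1085. Auxin genes differed in their course. GH3-2 was at 2301 ± 189 CPM at 2 d and 1583 ± 163 CPM at 5 d and did not pass (log2 fold change -0.54, adjusted p = 0.08). OsIAA9 fell from 44.5 ± 4.61 to 17.2 ± 5.52 CPM (log2 fold change -1.37, adjusted p = 0.01), and OsCRL1 from 11.6 ± 3.26 to 3.45 ± 0.449 CPM (log2 fold change -1.74, adjusted p = 2.9e-05). Their levels were thus above N6 at both days and highest at 2 d. OsIAA10 rose further, from 26.8 ± 3.38 to 57.6 ± 7.72 CPM (log2 fold change 1.10, adjusted p = 2.1e-05).

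Several genes described above rose between these days. OsCel9A went from 3.11 ± 2.97 to 68.1 ± 10.4 CPM (log2 fold change 4.46, adjusted p = 0.00012), Os04g0552000 from 1.38 ± 1.09 to 82.4 ± 7.29 CPM (log2 fold change 5.91, adjusted p = 5.8e-06) and OsGSTF12 from 0.0726 ± 0.0743 to 27.6 ± 9.33 CPM (adjusted p = 4.8e-05). OsGSTF12 was near 0 at 2 d, so no fold is given for it. 11N3 rose from 16.1 ± 3.37 to 86.8 ± 9.26 CPM (log2 fold change 2.43, adjusted p = 0.006). D18 was still at 9.16 ± 0.353 CPM at 2 d and at 0 at 5 d. Of 82 peroxidases 10 were higher and 31 lower at 5 d than at 2 d. For 69 heat shock protein genes the counts were 16 and 2, and for 25 ARF genes 1 and 0. Over all genes 5.59% were higher and 4.24% lower, and the ARF share lay below this. Other lists are not given here. Without replicate 1 the counts were 7 and 35 for peroxidases and 14 and 2 for heat shock protein genes, and the ARF call was lost. Both comparisons share the libraries of the line at 5 d.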

How the data were processed

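RNA from scutella was sequenced on poly(A) libraries of 24 samples, 3 in each of 8 groups of genotype, medium and day. The submitters' processing notes name Trimmomatic 0.36, HISAT2 2.1.0, StringTie 1.3.4d and the genome build IRGSP-1.0. The methods of the study also name UMI-tools, and whether it shaped the counts is not known. The authors deposited for 38866 genes an estimated count without normalization and an FPKM value per library, of which 4611 were at 0 in every library. In every library more genes had 4 counts than 3 or 5, so 3 fragments were taken as 12 counts, and this was the floor used wherever a group was at 0. The bound on a fold sets the mean of all 3 libraries of the other group against this floor. It was not recomputed without replicate 1.

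After rounding and filterByExpr, edgeR 4.0.16 (R 4.3.3) was run on the counts with TMM factors. All 8 groups shared 1 quasi-likelihood fit (16 residual degrees of freedom). The standard error of a log2 fold change is its size divided by the root of its F value. A call needed a Benjamini-Hochberg adjusted p under 0.05 over all 29710 genes tested and an absolute log2 fold change above 1. Comparisons were 5 d on CIM against N6 in the line, the interaction of this change with genotype, and 5 d against 2 d on CIM in the line. Beyond the word replicate, the labels do not say how the replicates of a group were separated, so p-values measure the spread between these libraries.

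Genes named are the 30 that the study lists by ID, the 10 largest rises and 10 largest falls among called genes without overlap, with at least 10 CPM and called without replicate 1, the 4 members with the smallest p and the most abundant member of each list, the 8 genes with the largest deviation of replicate 1 in each direction, and the 6 largest differences from wild-type in each direction. Not all are printed. The libraries, the 43 gene lists and the tests were chosen with earlier results of these data known, and the words that define the lists were edited after reading the gene names in the table and before any test. Lists rest on names and descriptions in the table and are described by counts, with no set test. Alternatives used DESeq2 1.42.0 and limma 3.58.1, with a pseudocount of 1 or 0.1 on FPKM. Tested on simulated data (29093 genes), the main comparison recovered 79% of genes with a log2 change of 1.5 and 92% with 2, with 2 false calls. The difference from wild-type recovered 64% and 81%, with 4 false calls. In the simulation 100 genes, all above 1 CPM, were changed by each size, and the other genes had equal means in all groups. It held no deviating replicate. These rates therefore do not describe genes near 0 or the effect of replicate 1 in the real data. Figures were drawn in Python 3.11.15 with Matplotlib 3.10.9.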

Additional observations from a re-analysis of the deposited data

Results flagged for a closer look

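All values here concern the difference between the line and wild-type in the change from N6 at 2 d to CIM at 5 d, tested in edgeR with an interaction term (3 libraries per group). The change was higher in the line for 3500 genes and lower for 1932, or 18.3% of those tested. Of the genes named in the text, 32 were called higher and 22 lower in the line. All 54 kept their sign when libraries were scaled to their totals alone, and 51 were called with replicate 1 at 5 d removed, the exceptions being Os10g0150700, Os10g0361300 and YUCCA5. Their differences in log2 fold change, line minus wild-type, follow by group. Higher or lower in the line refers here to this difference, not to a level or to a rise or fall. Prol-01, for example, fell in the line and is listed as higher, and CP rose in the line and is listed as lower.

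Among auxin genes the differences were -1.53 for OsIAA4, -1.20 for OsIAA5, -1.08 for OsARF12, -1.001 for OsARF13, -1.68 for OsARF16, -1.16 for OsARF19 and -1.73 for OsARF23. They were -2.22 for OsPIN1a, -3.53 for OsPIN1d and -1.22 for OsCRL1. All of these were lower in the line. GH3-2 (2.96), the LBD gene Os08g0563400 (2.79) and YUCCA5 (6.47) were higher in the line, and the LBD gene Os03g0287400 was lower (-6.77). Among genes of other hormones, GA20OX1 (6.25), Gn1a (2.37), SAPK3 (3.10) and SAPK10 (1.06) were higher and OsCKX3 (-1.73) was lower.

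Among embryo and stem cell regulators, values lower in the line were -2.56 for OsVP1, -4.49 for HAP3K, -1.92 for OsPLT1, -1.86 for OsPLT6 and -3.67 for DWT1, while OsPLT10 (1.53) was higher. The oleosin genes named were lower, with -3.74 for OLE18 and -5.43 for OsOLE4, while OsLEA24 (3.74) and OsASR5 (6.15) were higher. Reserve and transport genes higher in the line were AMY1A (3.83), Prol-01 (3.86), OsSWEET4 (3.65), LSI1 (3.10) and the aquaporin Os07g0448100 (2.56). The amylase Os08g0473900 (-7.24) and the proteinase gene CP (-3.64) were lower.

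The remaining genes higher in the line were OsCesA8 (1.42), prx60 (4.87), PRX125 (7.51), Cht9 (3.57), the P450 gene Os08g0105800 (3.10), the heat shock protein gene Os10g0159600 (8.21), the lipoxygenase gene Os10g0361300 (4.84), OsPAL03 (10.08), OsBURP02 (10.71), OsBURP07 (10.22) and RbcS1 (2.63). The hypothetical gene Os09g0451133 (4.06) and the similar genes Os10g0150400 (8.73) and Os10g0150700 (2.51) were higher as well, and the extensin-domain gene Os10g0205700 (-2.62) was lower. The values of Os03g0287400, Os10g0150400, OsASR5, OsBURP02, OsBURP07, PRX125 and YUCCA5 depend on the prior count of the fit. In each of them a group of 3 libraries was at or near 0. The metallothionein genes OsMT2b (2.15), OsMT3a (4.10) and MTd (4.99), described among the other observations, were higher in the line.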

How the results depend on the processing

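For the comparison of 5 d on CIM with N6 in the line, 3138 genes were called. The count was 4909 with limma voom and sample quality weights (2437 higher and 2472 lower), 1996 with limma on log2(FPKM + 1), 3087 on log2(FPKM + 0.1), and 6962 with no minimum fold. With RLE factors, library totals, DESeq2, no filter, only the groups compared, counts divided by 4 or unadjusted p it ran from 2503 to 4327. Leaving out 1 library at a time gave 2474 to 3484, the highest without replicate 1 at 5 d. For the difference from wild-type, 5432 genes were called, 9598 with no minimum fold and 4402 to 7027 with 1 library left out. For 5 d against 2 d on CIM, 2922 were called, 5053 with voom and quality weights, 1924 with limma on log2(FPKM + 1), 7350 with no minimum fold and 2159 to 3881 with 1 library left out. The causes of these shifts were not tested. Whether the replicate number pairs the libraries is not given in the labels, and the main fit did not pair them. Deviations of same-numbered libraries on N6 and at 5 d had low correlations of 0.0523, 0.0372 and 0.0339, but each library correlated best with its own number. These values cannot settle whether the libraries are paired. With the replicate number as a block the counts were 2966, 5272 and 2753. Of 246 genes that the naming rule picked, 158 were called and 50 of these lost the call under at least 1 alternative. In the report these include OsPLT2, OsPLT6, OsPLT9, DWT1, OsYUCCA9, OsSAG12-1, OsBURP07 and Prol-01. The call of OsVP1, absent with all libraries, appeared without replicate 1 at 5 d and without replicate 3 on N6. The median of 20 of the 43 gene lists changed sign, or moved to or from 0, when 1 library was left out or library totals were used. Levels under 12 counts in a library cannot be told from 0.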

Other observations

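At 5 d on CIM a few genes took a large part of the RNA of the line. The 10 most abundant were listed after the values had been seen, and 4 of them encode metallothioneins, small cysteine-rich proteins that bind metals. OsMT2b was at 14287, 16086 and 14265 CPM on N6 and 23048, 41566 and 41794 CPM at 5 d on CIM (log2 fold change 1.25, standard error 0.29, adjusted p = 0.0044). OsMT3a went from 10306, 11166 and 10238 to 13436, 26106 and 27676 CPM (log2 fold change 1.08, standard error 0.33, adjusted p = 0.022). MTd went from 2526, 2683 and 2528 to 5592, 13029.9 and 16603 CPM (log2 fold change 2.19, standard error 0.61, adjusted p = 0.013). In each of them replicate 1 was the lowest of the CIM libraries and still above N6. With library totals alone the log2 fold change of OsMT3a was 0.95, under the minimum fold. It was 1.13 for OsMT2b and 2.04 for MTd. In wild-type OsMT3a was at 6477 ± 779 CPM on N6 and 799.9 ± 307 CPM at 5 d (mean ± SD, n = 3). The median of all 29710 genes moved by 0.02 on the log2 scale.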
